A study of Mus musculus with 12 samples.

Results

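High-fat feeding of wild-type mice was set against control feeding in visceral white adipose tissue, the fat of the abdominal cavity. The comparison rests on 6 of the study's 12 RNA libraries, 3 of wild-type mice on high-fat diet and 3 of wild-type mice on control diet, which were taken by their titles and fitted over all genes from raw counts. Both diet groups were FVB/N mice that carried the alphaMHC tTA driver alone, a tetracycline transactivator under the promoter of the cardiac alpha-myosin heavy chain. The other 6 libraries came from FVB/N; alphaMHC tTA x alphaMHC TGFb mice, which add a TGF-b1 transgene that acts in the heart, on the same diets. They lend the fit their spread between libraries and serve to test whether the diet response differed with genotype. High-fat food drew 60% of its energy from fat, 20% from carbohydrate and 20% from protein and held 5.21 kcal/g, while control chow drew 17% from fat and held 3.1 kcal/g. The foods came from different makers, so fat content and other ingredients cannot be told apart. Mice were 8 to 10 weeks old at treatment, which lasted 2 or 6 weeks, and the labels tie neither duration to a library. Sex is not given either, and nothing states that replicates are different mice. The p-values therefore describe spread among the libraries at hand, part of which may be technical.

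White fat stores triglyceride in adipocytes, which build fatty acids from glucose, release them by lipolysis and secrete hormones such as leptin and adiponectin. Fibroblast-like progenitors, vessels, a mesothelial cover and immune cells lie between and around them, and the macrophages among these are either long-lived residents or descend from blood monocytes. A fat-rich diet is known to hold back fatty acid synthesis in adipocytes, to enlarge the tissue, to draw in monocytes through chemokines and to add collagen, above all type VI.

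Gene counts per wild-type library ran from 20.7 to 21.3 M, with 22603 to 23720 genes detected. Levels are given in CPM, counts per 1 M of a library's scaled total, and "log2" before a value means the log2 fold change of high-fat over control diet. Adipoq, the adiponectin gene that defines adipocytes, was abundant in every library, at 4339, 3921 and 4393 CPM on high-fat diet, against 4715, 5278 and 5466 CPM on control diet. The 10 measured adipocyte markers summed to 25244, 26132 and 29463 CPM in high-fat libraries, against 26717, 32026 and 34024 CPM in control libraries. Single libraries also held RNA of other tissues. The 13 measured of 16 striated muscle genes summed to 42.9, 35.7 and 737 CPM in high-fat libraries, against 68.6, 69.7 and 85.2 CPM in control libraries, with the creatine kinase gene Ckm at 0 in high-fat replicates 1 and 2 and in control replicate 2. Epithelial genes shared with mammary gland, 6 measured of 13, summed to 3.45, 5.14 and 5.62 CPM in high-fat libraries, against 32.7, 4.72 and 8.1 CPM in control libraries, so that control replicate 1 stood apart, and Krt5 was at 0 in all 3 high-fat libraries. The 11 measured of 14 Schwann cell and nerve genes summed to 331, 326 and 314 CPM in high-fat libraries, against 554, 382 and 304 CPM in control libraries. Of 12 liver genes 9 were measured, and 8 of these had a log2 change above 0. In 6 of the 9 every high-fat library lay above every control library, beside 12.6% of all tested genes. The median log2 change of the 9 was 3.30, or 1.95 without high-fat replicate 2, the library in which most of them were highest. Their sum ran the other way, at 706, 772 and 710.3 CPM in high-fat libraries, against 1727, 2139.6 and 1677 CPM in control libraries, because it is mostly Cyp2e1, which fat also makes (log2 -1.62, adjusted p = 0.0569). Ttr, the plasma carrier of thyroid hormone, reached 1.04, 10.5 and 0.186 CPM on high-fat diet and 0 CPM in every control library. The first principal component of the 6 libraries took 34.7% of the variance and parted the diets, and on the second, with 21.7%, control replicate 3 lay at one end. Because the RNA came from whole tissue, fewer cells of a type and less RNA per cell cannot be told apart.

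Genes raised on high-fat diet included the monocyte chemokines Ccl2 and Ccl7, the integrin gene Itgax, the class II regulator Ciita, the division genes Bub1 and Mki67 and the collagen VI chains Col6a1 and Col6a2. Genes lowered included Acacb and Aacs of lipid synthesis, the growth hormone targets Cish and Igf1, the macrophage lipoxygenase Alox15 and the fibroblast genes Scara5 and Dpep1. Most members of the lists that cover these roles did not pass, apart from 2 lists (monocyte and fibroblast genes) gathered once the values had been seen, and each list's count is given with its group. A gene was called where its adjusted p was below 0.05 in edgeR's quasi-likelihood test with Benjamini-Hochberg adjustment over all genes. That held for 188 of 16550 genes (1.14%), 113 higher (0.683%) and 75 lower (0.453%) on high-fat diet. Counts of called members in the lists below are to be read beside these shares. The median log2 fold change was 0.90 among the raised genes, of which 48 exceeded 2-fold, and -0.93 among the lowered genes, of which 28 did, beside -0.01 over all genes tested. In all 113 raised genes every high-fat library lay above every control library, a pattern that 12.6% of all tested genes showed. The reverse held in 74 of the 75 lowered genes and in 12.4% of all tested genes, and Thrsp was the exception. The calls were made on these same libraries, so lack of overlap in called genes, here and below, adds no separate evidence. The smallest adjusted p, 0.00796, belonged to Jag1 and Ccl7.

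The number of calls hung on single libraries and on the tool. It was 9, 0 and 17 without high-fat replicates 1, 2 and 3, and 2, 13 and 269 without control replicates 1, 2 and 3. Without high-fat replicate 2, 2213 genes had an unadjusted p under 0.05, against 2991 with all libraries. Leaving out control replicate 3 gave 97 raised and 172 lowered genes, so that 36.1% of calls were raised in place of 60.1%. Without the muscle-rich libraries (wild-type high-fat replicate 3 and transgenic control replicate 3) 23 genes passed, and 32 without the epithelial-rich ones (wild-type control replicate 1 and transgenic control replicate 2). DESeq2 called 847 genes on the 12 libraries, of which 187 were among the 188, and limma-voom called 699, of which 186 were. The authors' deposited table calls 1011 genes, and 185 are in both sets, all in the same direction (98.4% of edgeR's calls and 18.3% of the table's). Each of the 188 genes kept its direction in every one of these fits in which it was measured.

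**Figure D1:**
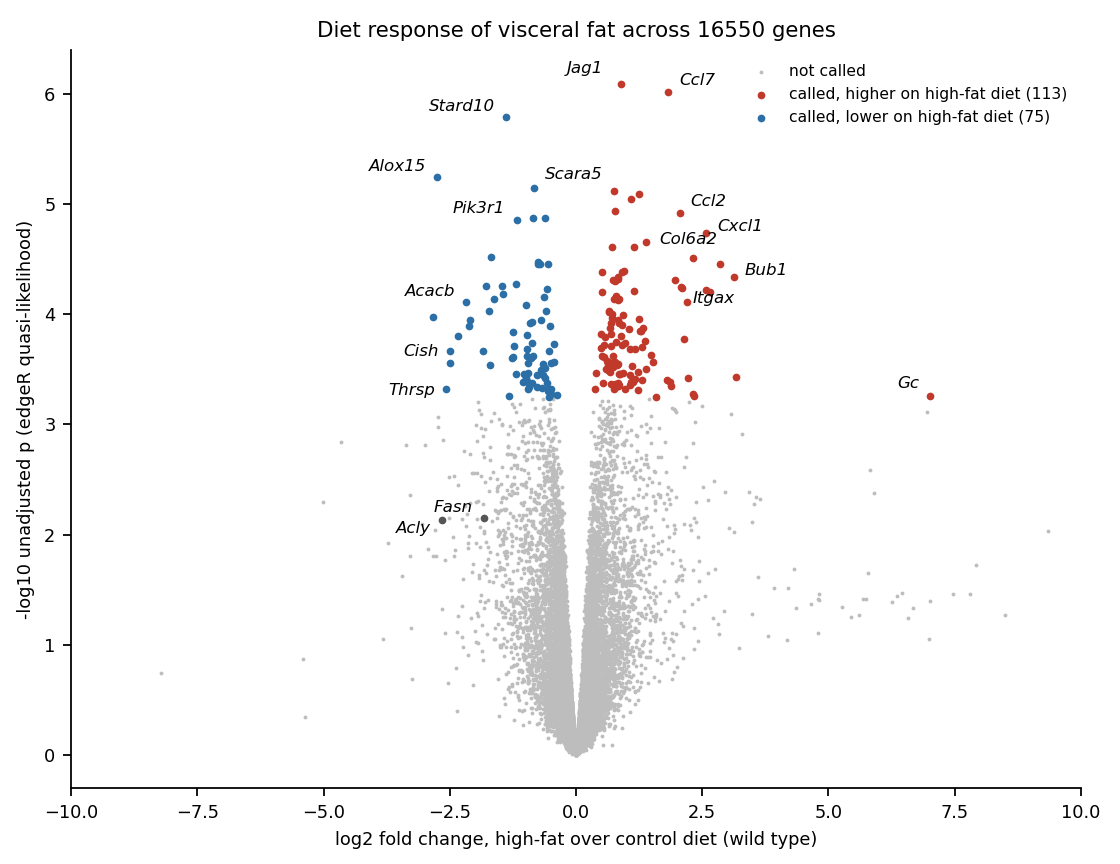
Log2 fold change (high-fat over control diet) against -log10 of the unadjusted p for 16550 genes in wild-type fat. The 113 raised genes are red and the 75 lowered genes blue. Jag1, Ccl7 and Stard10 have the smallest p, and Fasn and Acly, in dark grey, lie far to the left without being called.

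**Figure D2:**
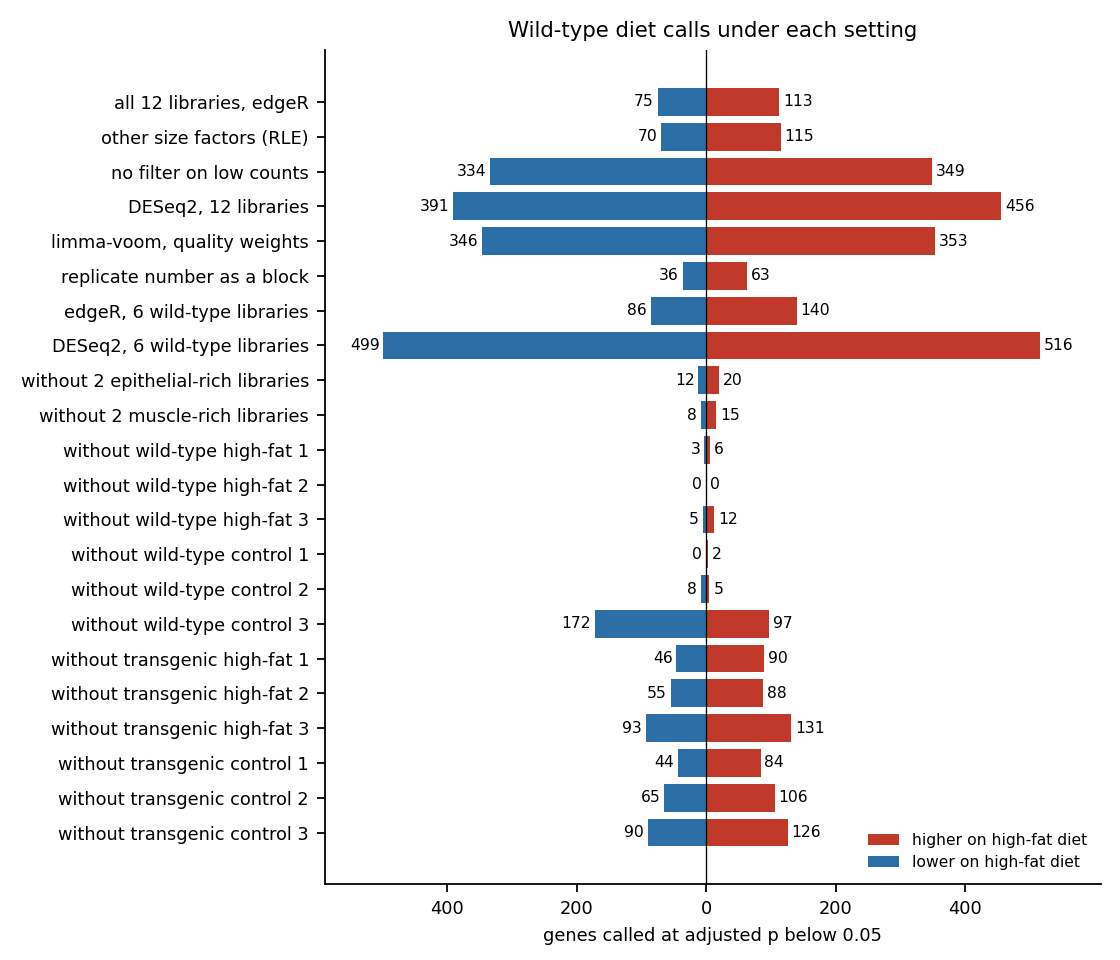
Number of genes called higher (red, right) and lower (blue, left) on high-fat diet in each fit. Leaving out a wild-type library other than control replicate 3 left at most 17 calls, while leaving out control replicate 3 gave 172 lowered genes.

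Of 16 genes of core fatty acid synthesis 3 were lowered on high-fat diet, and the control libraries themselves were split. Acacb, the acetyl-CoA carboxylase of the mitochondrial surface, whose product restrains fatty acid oxidation, stood at 102, 59.2 and 88.6 CPM on high-fat diet, against 479, 459 and 185 CPM on control diet. Its 3 high-fat libraries lay below the lowest control, control replicate 3 (log2 -2.17, SE 0.38, adjusted p = 0.0249). Aacs, which activates ketone-body carbon for lipid synthesis, stood at 115, 111 and 101 CPM on high-fat diet, against 389, 454 and 207 CPM on control diet and fell by a like amount (log2 -1.68, SE 0.26, adjusted p = 0.0242). Thrsp, a nuclear protein of lipogenic tissues, stood at 292, 268 and 529.5 CPM on high-fat diet, against 3545, 2493 and 428 CPM on control diet; here the highest high-fat library passed the lowest control (log2 -2.57, SE 0.55, adjusted p = 0.0448). These 3 calls stand against 0.453% of all genes tested that were lowered. The list's median log2 change was -1.43, 15 members lay below 0, and without control replicate 1 the median was -0.92. Acly, which releases acetyl-CoA from citrate, stood at 286, 415 and 387 CPM on high-fat diet, against 4532, 2045 and 250.4 CPM on control diet (log2 -2.65, SE 0.83, adjusted p = 0.125). Acaca, the cytosolic carboxylase, stood at 511, 426 and 379 CPM on high-fat diet, against 2480.0, 1882 and 454 CPM on control diet (log2 -1.87, SE 0.44, adjusted p = 0.0606). Elovl6, the elongase of palmitate, belongs to the desaturase and elongase list given further on. It stood at 97.7, 72 and 65.7 CPM on high-fat diet, against 496, 414 and 51.6 CPM on control diet (log2 -2.03, SE 0.54, adjusted p = 0.0848). In each of these 3 genes control replicate 3 lay at or near the high-fat levels and controls 1 and 2 at least 3-fold above it. Summed over the core synthesis list, the level was 8309, 7728 and 6734 CPM in high-fat libraries, against 38527, 27936 and 6208 CPM in control libraries. The lipogenic regulators also had their lowest control in replicate 3. Mlxipl, the carbohydrate-sensing factor, stood at 65.1, 70.5 and 79 CPM on high-fat diet, against 209, 168 and 81.7 CPM on control diet and did not pass (adjusted p = 0.0943). Srebf1, the sterol-element factor that insulin induces, stood at 414, 420.1 and 334 CPM on high-fat diet, against 582, 774 and 469 CPM on control diet and did not pass either (adjusted p = 0.0771).

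Other steps of fat handling moved less. Of 15 desaturase and elongase genes none was called, though 14 had a log2 change below 0. Their median was -0.25, and Elovl6, given above, was the lowest at -2.03. In 3 of them every high-fat library lay below every control library, beside 12.4% of all tested genes. Scd1, the abundant stearoyl-CoA desaturase, stood at 41633, 24485 and 28692 CPM on high-fat diet, against 38439, 41896 and 26542 CPM on control diet with overlapping groups (log2 -0.17, SE 0.34, adjusted p = 0.832). Of 18 triglyceride synthesis genes Mogat1, a monoacylglycerol acyltransferase, was lowered (6.81, 5.89 and 7.8 CPM on high-fat diet, against 17.5, 20 and 11.1 CPM on control diet; log2 -1.24), though 12.8% of its exon bases are shared with a neighbouring gene. Of 15 lipolysis genes Pnpla2, the lipase that opens triglyceride breakdown, was lowered, at 2171, 2158 and 2239.9 CPM on high-fat diet, against 3020.3, 3628 and 3614 CPM on control diet, with the high-fat libraries close together (log2 -0.64, SE 0.13, adjusted p = 0.0411). Stard10, a phospholipid transfer protein, had the smallest adjusted p of the lowered genes, at 14.8, 19.4 and 16.8 CPM on high-fat diet, against 43.1, 49 and 40.8 CPM on control diet (log2 -1.38, SE 0.16, adjusted p = 0.00898). Adig, which encodes adipogenin, a small adipocyte membrane protein, fell with 147, 155 and 182 CPM on high-fat diet, against 243, 299.8 and 276 CPM on control diet (log2 -0.76). Slc16a1, the lactate and pyruvate carrier MCT1, was lowered at 101, 90.7 and 98.6 CPM on high-fat diet, against 172, 174 and 144 CPM on control diet (log2 -0.75). Pygl, a glycogen phosphorylase, fell to 199 ± 19.7 CPM on high-fat diet, against 468 ± 178 CPM on control diet (SD, n = 3 each) (log2 -1.23, SE 0.24, adjusted p = 0.0342). In the opposite direction Lpgat1, an acyltransferase of the endoplasmic reticulum, rose and was among the most abundant raised genes, at 1015, 1082 and 822 CPM on high-fat diet, against 475, 589 and 543 CPM on control diet (log2 0.86, SE 0.18, adjusted p = 0.0411). None of 21 cholesterol synthesis, 16 fatty acid oxidation, 15 lipid uptake and 11 lipid droplet genes was called. Of the 10 called genes of fat metabolism named here, 1, 0 and 2 passed without high-fat replicates 1, 2 and 3, and 0, 1 and 8 without control replicates 1, 2 and 3 (adjusted p up to 0.19).

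Mitochondrial genes had small log2 changes below 0 in most members, and few were called. Of 24 listed nuclear-encoded respiratory chain genes, which leave out Cox8a, 23 had a log2 change below 0 and none was called. Their median was -0.41 and they summed to 4707, 4947 and 5647 CPM in high-fat libraries, against 7100.1, 7620.3 and 5558 CPM in control libraries. High-fat replicate 3 lay just above control replicate 3, and the other libraries were apart by diet. Of 48 mitochondrial ribosome genes, a list made after the values had been seen, 46 lay below 0 with a median of -0.26, and 25 had every high-fat library below every control library, beside 12.4% of all tested genes. Its 2 called members were both lowered, beside 0.453% of all tested genes. Mrpl16 stood at 18.9, 19 and 19.6 CPM on high-fat diet, against 27.1, 28.6 and 28.1 CPM on control diet (log2 -0.54, SE 0.11, adjusted p = 0.0354). The other, Mrpl38, stood at 55, 58.4 and 59.5 CPM on high-fat diet, against 73.9, 83.8 and 75.3 CPM on control diet (log2 -0.43). Cox8a, a nuclear-encoded respiratory chain subunit of cytochrome oxidase outside both lists, was called and fell with 393, 351 and 428 CPM on high-fat diet, against 594, 683 and 589.8 CPM on control diet (log2 -0.67, SE 0.14, adjusted p = 0.0448). Prdx3, the peroxidase of mitochondrial peroxide, stood at 114, 107 and 124 CPM on high-fat diet, against 185, 176 and 148 CPM on control diet (log2 -0.56). The matrix protease gene Clpp was lowered at 46.3, 46 and 49 CPM on high-fat diet, against 64.2, 70.9 and 67.7 CPM on control diet (log2 -0.52). Maip1, an assembly factor of the inner-membrane protease, was lowered at 20.5, 21.9 and 22.4 CPM on high-fat diet, against 28, 30.2 and 29.8 CPM on control diet (log2 -0.44). Car5b, the mitochondrial carbonic anhydrase, which feeds bicarbonate to carboxylation, was lowered to 179 ± 22.9 CPM on high-fat diet, against 329 ± 60.6 CPM on control diet (SD, n = 3 each) (log2 -0.88, SE 0.18, adjusted p = 0.0438). Alas1, which opens haem synthesis, was lowered to 133 ± 15.4 CPM on high-fat diet, against 227 ± 49.4 CPM on control diet (SD, n = 3 each) (log2 -0.77). Akr1b3, aldose reductase of the polyol route, was lowered with little spread, at 154, 151 and 147 CPM on high-fat diet, against 225, 211 and 225 CPM on control diet (log2 -0.55, SE 0.09, adjusted p = 0.0242).

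Among whole lists of metabolism, none of 18 citrate cycle genes (median -0.36), 19 branched-chain amino acid genes (median -0.19), 13 mitochondrially encoded genes (median -0.43) and 26 cytosolic ribosomal protein genes (median -0.23) was called. All members of the last 3 lists had a log2 change below 0, beside a median of -0.01 over all tested genes. These medians hung on single libraries. The branched-chain median was -0.11 and the mitochondrially encoded one -0.24 without control replicate 2. Without high-fat replicate 2 the mitochondrially encoded median was -0.28, and without control replicate 3 the ribosomal one was -0.09. Reads from mitochondrially encoded genes took 4.56% to 6.58% of high-fat libraries and 5.61% to 8.68% of control libraries. Of 18 genes of glucose uptake and glycolysis 17 lay below 0 and Gapdh alone was called, at 49.1, 45.2 and 39.3 CPM on high-fat diet, against 106, 95.6 and 57.1 CPM on control diet (log2 -0.95); Gapdh has many processed pseudogenes, so its count is uncertain. Pcx, the pyruvate carboxylase that refills the cycle, stood at 1202, 1003 and 987 CPM on high-fat diet, against 2506, 2179 and 1205 CPM on control diet and did not pass (adjusted p = 0.101). Ucp1, the uncoupling protein of brown and beige adipocytes, varied from library to library more than with diet, at 0.378, 0.0879 and 50.9 CPM on high-fat diet, against 92.5, 27.7 and 0.0925 CPM on control diet (log2 -1.23, SE 1.70, adjusted p = 0.753). One high-fat and 2 control libraries held nearly all of it. Of the 10 called genes of mitochondria and glucose metabolism named here, 0, 0 and 0 passed without high-fat replicates 1, 2 and 3, and 0, 0 and 8 without control replicates 1, 2 and 3 (adjusted p up to 0.19).

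In hormone signalling the calls took in receptors, an adaptor, growth hormone targets, secreted factors, a transcription factor and the non-secreted Fgf13. No adipokine gene was called. Cish, an inhibitor that growth hormone and other cytokines induce through STAT5, stood at 3.92, 4.27 and 3.85 CPM on high-fat diet, against 15.8, 8.43 and 43.8 CPM on control diet. The high-fat libraries were low and close together, and control replicate 3 was far above the other controls (log2 -2.50, SE 0.50, adjusted p = 0.038; -1.59 without that library, adjusted p = 0.0452). Its exons overlap opposite-strand genes at 11.5% of their bases, which makes the value less certain. Igf1, the growth factor that growth hormone induces, was lowered in parallel, at 189.7, 165 and 184 CPM on high-fat diet, against 285, 337 and 429.6 CPM on control diet (log2 -0.96, SE 0.19, adjusted p = 0.0348). These were the 2 called genes among 18 of the growth hormone, STAT5 and SOCS list, beside 0.453% of all tested genes that were lowered. Socs2, a further STAT5 target, stood at 11.3, 17.3 and 9.66 CPM on high-fat diet, against 8.78, 14.6 and 23.3 CPM on control diet with overlapping groups (adjusted p = 0.705). Pik3r1, the regulatory subunit that couples the insulin receptor to PI3-kinase, was lowered in a tight band of high-fat libraries, at 99.9, 101 and 100.3 CPM on high-fat diet, against 232, 246 and 204 CPM on control diet (log2 -1.18, SE 0.17, adjusted p = 0.0178), and was the only call among 16 insulin signalling genes. Mc5r, a melanocortin receptor of adipocytes in mouse, was lowered at 1.32, 1.93 and 1.53 CPM on high-fat diet, against 9.7, 9.55 and 5.04 CPM on control diet (log2 -2.34, SE 0.44, adjusted p = 0.0317). Cnr1, the cannabinoid receptor CB1, was raised at 10.8, 12.2 and 12.7 CPM on high-fat diet, against 4.9, 5.38 and 5.78 CPM on control diet (log2 1.15, SE 0.18, adjusted p = 0.0238), the only call among 8 endocannabinoid genes.

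Ebf2, a factor of beige and brown precursors, was lowered at 24.8, 19.5 and 21.6 CPM on high-fat diet, against 31.9, 31.3 and 29.6 CPM on control diet (log2 -0.49). Of 12 fibroblast growth factor genes 1 was lowered and 1 raised, beside 0.453% and 0.683% of all tested genes. Fgf1, a secreted factor that fat makes, was lowered at 16.7, 9.81 and 13.1 CPM on high-fat diet, against 26.8, 21.3 and 27.6 CPM on control diet (log2 -0.93). Fgf13, a non-secreted family member, was raised at 110.4, 82.6 and 75.7 CPM on high-fat diet, against 46.3, 40.9 and 54.7 CPM on control diet (log2 0.92, SE 0.15, adjusted p = 0.0244). Tgfb1, the cytokine whose cardiac form the study overexpresses in other mice, was raised in fat with no overlap, at 67.8, 69 and 63.7 CPM on high-fat diet, against 47.8, 45.7 and 46.2 CPM on control diet (log2 0.52), and was the only call among 18 genes of TGF-beta ligands, latency proteins and receptors. Lep, the leptin gene, stood at 2778, 2124 and 2005 CPM on high-fat diet, against 1319, 1991 and 1482 CPM on control diet and did not pass (log2 0.53, SE 0.27, adjusted p = 0.323). Npr3, which clears natriuretic peptides, had no overlap, at 1666, 1588 and 1577 CPM on high-fat diet, against 1069, 1140.2 and 1115 CPM on control diet. It did not pass (log2 0.54, SE 0.13, adjusted p = 0.0602). Mest, an imprinted gene that marks fat expansion, stood at 2021, 1187 and 918 CPM on high-fat diet, against 270.0, 716 and 944 CPM on control diet with overlapping groups (log2 1.10, SE 0.48, adjusted p = 0.254), and shares 23.1% of its exon bases with other genes. The abundant carbonic anhydrase Car3 stood at 31609, 31406 and 36756 CPM on high-fat diet, against 31907, 33433 and 34481 CPM on control diet (log2 -0.00, SE 0.16, adjusted p = 0.998). None of 13 adipokine genes, 13 adipogenic factors and 9 steroid receptors was called. Of the 9 called genes of hormone signalling named here, 0, 0 and 1 passed without high-fat replicates 1, 2 and 3, and 0, 1 and 6 without control replicates 1, 2 and 3 (adjusted p up to 0.189).

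**Figure D3:**
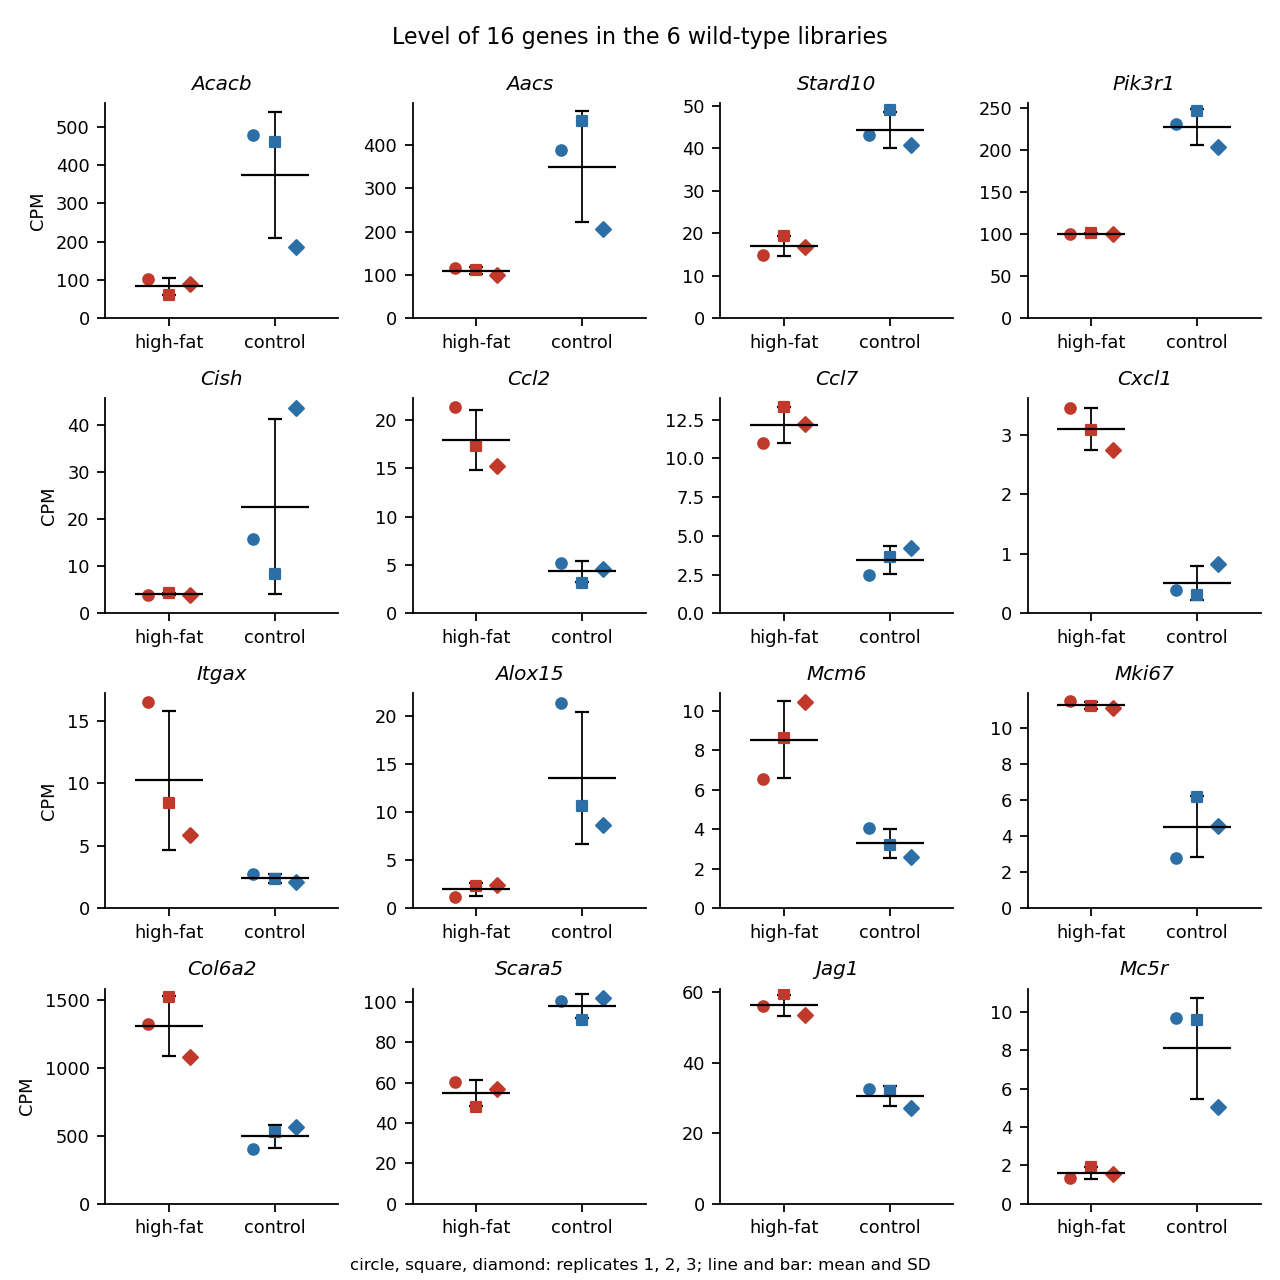
Level (CPM) of 16 genes in the 3 high-fat (red, left) and 3 control (blue, right) wild-type libraries, with the mean and SD. The diets do not overlap in any of the 16 genes. Control replicate 3 (diamond) lies nearest the high-fat level in Acacb and Aacs and farthest from it in Cish.

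Several chemokines that attract monocytes and neutrophils were raised. Ccl2 and Ccl7, neighbouring genes on chromosome 11 whose products bind the monocyte receptor Ccr2, were both raised. Ccl2 stood at 21.4, 17.3 and 15.3 CPM on high-fat diet, against 5.24, 3.15 and 4.58 CPM on control diet (log2 2.05, SE 0.29, adjusted p = 0.0178). Ccl7 stood at 11, 13.3 and 12.2 CPM on high-fat diet, against 2.47, 3.66 and 4.21 CPM on control diet (log2 1.82, SE 0.20, adjusted p = 0.00796). The lowest high-fat library of each gene lay at least 2-fold above the highest control. Ccl8, of the same family, stood at 8.88, 15.7 and 22.7 CPM on high-fat diet, against 3.49, 3.2 and 5.51 CPM on control diet (log2 1.95, SE 0.32, adjusted p = 0.0244). Ccr2 itself was raised with 32.6, 42 and 31.2 CPM on high-fat diet, against 20.5, 15.6 and 13.2 CPM on control diet (log2 1.10, SE 0.22, adjusted p = 0.0384). Ccl24, an eosinophil attractant that resident macrophages make, was lowered at 8.93, 10.1 and 11.2 CPM on high-fat diet, against 26.1, 26.2 and 20 CPM on control diet (log2 -1.26, SE 0.25, adjusted p = 0.0374). These were 4 raised and 1 lowered of 17 genes of CC chemokines and receptors, beside 0.683% raised and 0.453% lowered of all tested genes. The list's median was 0.57, or 0.33 without control replicate 3. Of 13 CXC and CX3C chemokines 2 were raised, beside 0.683% of all tested genes. Cxcl1, a neutrophil attractant, stood at 3.45, 3.08 and 2.74 CPM on high-fat diet, against 0.388, 0.305 and 0.833 CPM on control diet (log2 2.58, SE 0.38, adjusted p = 0.0218). Cxcl10, an interferon-induced attractant of T cells, stood at 3.54, 2.81 and 3.2 CPM on high-fat diet, against 0.921, 1.32 and 1.16 CPM on control diet (log2 1.49, SE 0.29, adjusted p = 0.0371). Both are low genes in which every high-fat library exceeded every control library. Genes of monocyte-derived cells are given further on. Many of these were chosen because they were called, so their direction adds no support here. The list of 18 macrophage markers, also given there, had 1 call and a median of -0.11. The part of such cells in the chemokine result was not tested.

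Of 10 genes of the NF-kappaB family, a factor that drives many chemokines, and its inhibitors, 3 were raised, beside 0.683% of all tested genes. The list was made after the values had been seen, so its count supports nothing by itself. Relb stood at 28.6, 30.1 and 28.6 CPM on high-fat diet, against 18.9, 20.4 and 21.4 CPM on control diet (log2 0.52). Nfkb2, whose product pairs with it, stood at 34.4, 39.6 and 33.3 CPM on high-fat diet, against 26, 20.4 and 22.4 CPM on control diet (log2 0.64). Opposite-strand genes share 18.1% of the exon bases of Nfkb2, which makes its value less certain. Nfkbie, an inhibitor that NF-kappaB induces, stood at 7.8, 7.87 and 6.96 CPM on high-fat diet, against 4.36, 3.86 and 3.93 CPM on control diet (log2 0.90, SE 0.17, adjusted p = 0.0317). In all 3 genes the groups were apart. The RefSeq promoter table (GRCm38.p6, 250 bases before to 50 after the start site) was searched on both strands for the NF-kappaB consensus, which 8.46% of its 32851 promoters and 10.5% of those of tested genes hold. The 8 called genes looked up were raised chemokine and NF-kappaB genes, picked by hand once their values had been seen. Other called genes of inflammation were not searched, so the number that hold a match cannot be weighed against these shares. Cxcl1, Cxcl10, Ccl8, Nfkbie and Nfkb2 were matched in the table and Ccl2, Ccl7 and Relb were not. The promoters of Cxcl1, at chr5:90890995-90891294 on the plus strand, and of Cxcl10, at chr5:92348840-92349139 on the minus strand, are printed because both genes were raised and both hold a match. Matches are in capitals; in Cxcl1 they begin at -71 and -70, on opposite strands and overlapping, and in Cxcl10 at -159, -104 and -103, the last on both strands. The promoter of Ccl8 held no match, that of Nfkbie held 1, and the 3 starts of Nfkb2 held 4, 2 and 1.
Cxcl1: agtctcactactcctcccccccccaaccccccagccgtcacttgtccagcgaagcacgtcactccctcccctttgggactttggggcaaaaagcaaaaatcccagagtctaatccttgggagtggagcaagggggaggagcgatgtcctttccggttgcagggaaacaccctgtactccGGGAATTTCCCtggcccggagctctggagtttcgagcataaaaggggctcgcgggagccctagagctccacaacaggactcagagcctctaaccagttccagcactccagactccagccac
Cxcl10: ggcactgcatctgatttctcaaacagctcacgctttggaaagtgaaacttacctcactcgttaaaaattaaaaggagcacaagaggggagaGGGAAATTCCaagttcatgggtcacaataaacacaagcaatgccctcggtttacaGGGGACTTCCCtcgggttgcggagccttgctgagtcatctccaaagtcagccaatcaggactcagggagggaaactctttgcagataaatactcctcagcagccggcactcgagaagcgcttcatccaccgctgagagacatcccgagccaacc
A match describes the letters in the window and not a site in use.

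Among secreted proteins of inflammation, Lbp, which presents endotoxin to its receptors, was raised at 159, 159 and 137 CPM on high-fat diet, against 68.5, 71.4 and 68.4 CPM on control diet (log2 1.13, SE 0.24, adjusted p = 0.0438). Cp, the copper oxidase ceruloplasmin, was lowered at 71.3, 50.4 and 67.4 CPM on high-fat diet, against 184, 167 and 124 CPM on control diet (log2 -1.33, SE 0.29, adjusted p = 0.0491). They were the 2 calls among 11 acute-phase genes, 1 raised and 1 lowered, beside 0.683% raised and 0.453% lowered of all tested genes. The list's median was 0.80. Liver, whose genes were highest in high-fat replicate 2, also makes acute-phase proteins, and its part here was not tested. Saa3, the serum amyloid A that fat makes, stood at 26.8, 63.8 and 51.3 CPM on high-fat diet, against 15.2, 5.38 and 9.3 CPM on control diet without overlap and did not pass (log2 2.24, SE 0.49, adjusted p = 0.0527). Wfdc21, a small secreted protein of the whey-acidic family, was raised at 19.4, 34.7 and 38.9 CPM on high-fat diet, against 4.36, 10 and 11.2 CPM on control diet (log2 1.86, SE 0.39, adjusted p = 0.0438). Cfb, complement factor B of the alternative pathway, was raised at 393, 463 and 449 CPM on high-fat diet, against 201, 217 and 253 CPM on control diet (log2 0.96, SE 0.15, adjusted p = 0.0244) and was the only call among 18 complement genes; 79.5% of its exon bases are shared with a same-strand readthrough gene. None of 9 cytokines of inflammation and 18 interferon-stimulated genes was called. Of the 14 called genes of chemokines, NF-kappaB and inflammation named here, 2, 0 and 2 passed without high-fat replicates 1, 2 and 3, and 1, 1 and 9 without control replicates 1, 2 and 3 (adjusted p up to 0.194).

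The myeloid genes held a raised and a lowered set. Of 18 macrophage markers Mpeg1, the pore-forming perforin-2 of phagocytes, was raised, at 134, 75.3 and 68.1 CPM on high-fat diet, against 43.7, 32.7 and 35.3 CPM on control diet (log2 1.31, SE 0.25, adjusted p = 0.0347), and the list's median was -0.11. Adgre1, which encodes F4/80, stood at 41.7, 26.6 and 24.3 CPM on high-fat diet, against 29.7, 24.6 and 27.6 CPM on control diet. Csf1r, the receptor of macrophage growth factor, stood at 121, 113 and 123 CPM on high-fat diet, against 126, 117 and 136 CPM on control diet. Neither was called. Raised genes included Itgax, the integrin chain CD11c of dendritic cells and of recruited fat macrophages, at 16.5, 8.4 and 5.85 CPM on high-fat diet, against 2.76, 2.39 and 2.08 CPM on control diet, where high-fat replicate 1 was highest (log2 2.08, SE 0.35, adjusted p = 0.0244). Itgax was the only call among 15 lipid-associated macrophage genes, of which 10 lay above 0 and 5 below. The median of that list was 0.22, or 0.06 without high-fat replicate 1. Cd44, the hyaluronan receptor, was raised with 37, 39.1 and 29.2 CPM on high-fat diet, against 18.8, 14.7 and 15.7 CPM on control diet (log2 1.10, SE 0.15, adjusted p = 0.0178). Irf8, a factor of monocyte and dendritic cell development, was raised with 29.1, 31.4 and 35.2 CPM on high-fat diet, against 14.6, 16.4 and 15.2 CPM on control diet (log2 1.05, SE 0.19, adjusted p = 0.0299). Fscn1, the actin bundler of mature dendritic cells, was raised at 77.8, 92.3 and 93.1 CPM on high-fat diet, against 51.1, 50.7 and 46.6 CPM on control diet (log2 0.83). Itgax, Irf8 and Fscn1 were the 3 calls among 14 dendritic cell markers (median 0.53), beside 0.683% of all tested genes that were raised. The pan-leukocyte phosphatase Ptprc (CD45) rose with 31, 28.3 and 25.5 CPM on high-fat diet, against 21.7, 17.3 and 15.6 CPM on control diet (log2 0.64).

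Further raised genes were the surface receptors Cd300e (log2 1.58), Cd300ld (0.92), Clec4a2 (0.97) and Gpr35 (1.24), the leukocyte myosin Myo1f (1.22) and the signalling adaptor Lcp2 (0.91). Sirpb1a, a signal-regulatory protein of myeloid cells, went with 1.37, 1.45 and 0.836 CPM on high-fat diet, against 0.145, 0.152 and 0.0925 CPM on control diet (log2 3.18, SE 0.66, adjusted p = 0.0426); it has close copies, so its count is uncertain. A list of 14 monocyte and recruited myeloid genes was written around genes already seen to be called, so that its 12 calls, beside 0.683% of all tested genes, follow from its choice. Its sum is given as a level only and was 331, 262 and 228 CPM in high-fat libraries, against 142, 117 and 117 CPM in control libraries. The lowered set held Alox15, a lipoxygenase of resident peritoneal-type macrophages and eosinophils, at 1.23, 2.33 and 2.46 CPM on high-fat diet, against 21.3, 10.7 and 8.65 CPM on control diet (log2 -2.75, SE 0.36, adjusted p = 0.0178), with 2 lectin genes and Ccl24. The lectin gene Fcna stood at 12.5, 17.4 and 13.4 CPM on high-fat diet, against 39.1, 35.6 and 43.4 CPM on control diet (log2 -1.45, SE 0.25, adjusted p = 0.0244). Cd209b, the other, stood at 15.8, 18.4 and 19.4 CPM on high-fat diet, against 28.4, 32.6 and 36.7 CPM on control diet (log2 -0.87). All 4 had groups that do not overlap. Of 13 resident macrophage genes, likewise listed after the values had been seen, 12 lay below 0, with a median of -0.46, or -0.29 without high-fat replicate 1. Their sum was 273, 344 and 307 CPM in high-fat libraries, against 402, 400.0 and 399.7 CPM in control libraries. Lyve1, which marks residents, stood at 27.1, 37.9 and 26.6 CPM on high-fat diet, against 44, 38 and 32.7 CPM on control diet. Timd4, a further such marker, stood at 6.52, 9.45 and 6.92 CPM on high-fat diet, against 9.84, 8.38 and 7.08 CPM on control diet. Both overlapped between diets.

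**Figure D4:**
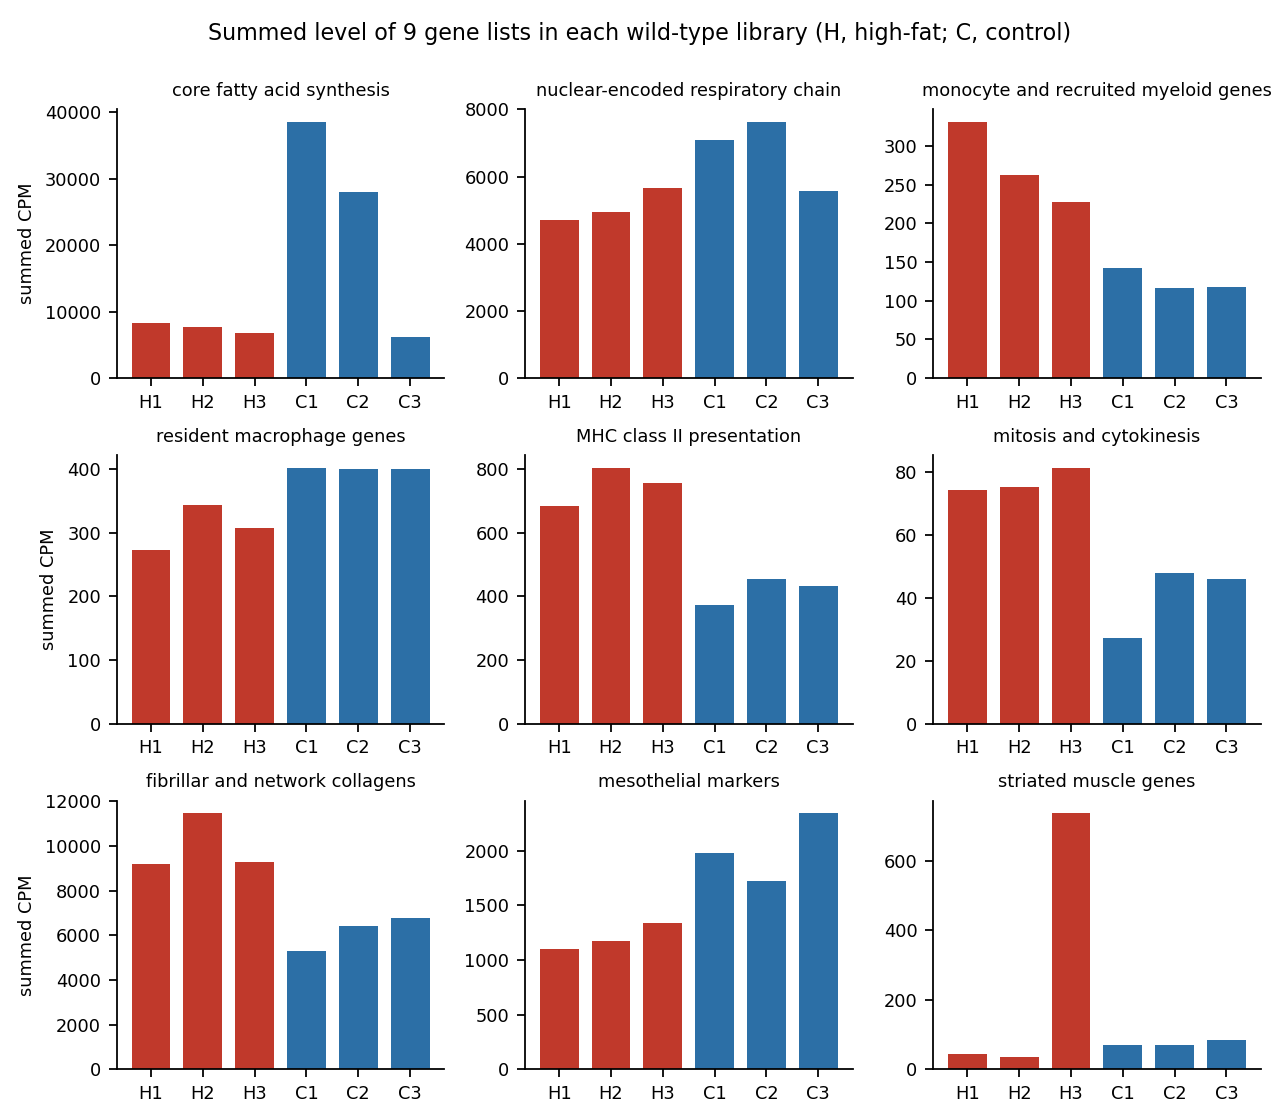
Summed CPM of 9 gene lists in each wild-type library, high-fat (red, H1 to H3) left of control (blue, C1 to C3). The monocyte list, chosen on these values, lies between 228 and 331 on high-fat diet, above all controls, while core fatty acid synthesis in control replicate 3 is as low as on high-fat diet and muscle genes stand out in high-fat replicate 3.

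Of 10 genes of class II antigen presentation 3 were called, all raised. All 10 had a log2 change above 0, 9 had every high-fat library above every control library (12.6% of all tested genes), and the 3 calls stand beside 0.683% of all tested genes. Ciita, the master regulator of class II transcription, stood at 10.7, 11.5 and 10.9 CPM on high-fat diet, against 5.19, 3.35 and 5.0 CPM on control diet (log2 1.28, SE 0.24, adjusted p = 0.0305). Cd74, the invariant chain, stood at 401, 477 and 449.6 CPM on high-fat diet, against 211, 259.8 and 235 CPM on control diet (log2 0.91, SE 0.17, adjusted p = 0.0342). H2-DMa, which loads peptides, stood at 21.9, 24.4 and 20.9 CPM on high-fat diet, against 14.7, 14.2 and 14.1 CPM on control diet (log2 0.64); 10.4% of the exon bases of H2-DMa are shared with another gene. The chain gene H2-Ab1 stood at 126, 149 and 137 CPM on high-fat diet, against 67, 91.2 and 94 CPM on control diet (adjusted p = 0.0972). Its partner H2-Aa stood at 102, 115 and 114 CPM on high-fat diet, against 58.6, 70.7 and 68.5 CPM on control diet (adjusted p = 0.197). Both were apart between diets but did not pass. The list summed to 684, 804 and 756 CPM in high-fat libraries, against 372, 453 and 434 CPM in control libraries. Lymphocyte genes were few in counts and none was called. Of 13 T and NK cell markers 12 lay above 0, with a median of 0.67 and sums of 27.4, 23.5 and 22.5 CPM in high-fat libraries, against 21.2, 17.2 and 11.1 CPM in control libraries. Cd8a, the co-receptor of cytotoxic T cells, stood at 0.236, 0.484 and 1.16 CPM on high-fat diet, against 0.145, 0.0508 and 0.0925 CPM on control diet (adjusted p = 0.107). All 7 B cell markers lay below 0, with a median of -1.23, or -0.74 without control replicate 1. Cd79a, part of the B cell receptor, stood at 1.23, 1.14 and 0.882 CPM on high-fat diet, against 5.62, 3.2 and 2.55 CPM on control diet (adjusted p = 0.0611). Of the 21 called myeloid and antigen presentation genes named here, Ccl24 and Ccr2 included, 0, 0 and 3 passed without high-fat replicates 1, 2 and 3, and 0, 1 and 7 without control replicates 1, 2 and 3 (adjusted p up to 0.168).

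Some genes of DNA replication and cell division were raised, while most members of these lists did not pass. Mcm6, a subunit of the replicative helicase, stood at 6.57, 8.62 and 10.4 CPM on high-fat diet, against 4.07, 3.2 and 2.59 CPM on control diet (log2 1.38, SE 0.28, adjusted p = 0.0401). Mcm10, which activates the helicase, stood at 1.23, 1.14 and 1.25 CPM on high-fat diet, against 0.242, 0.305 and 0.231 CPM on control diet (log2 2.20, SE 0.38, adjusted p = 0.0249). They were the 2 called of 18 licensing and fork genes, beside 0.683% of all tested genes that were raised. Pclaf, a partner of the sliding clamp, stood at 1.75, 1.63 and 2.51 CPM on high-fat diet, against 0.436, 0.61 and 0.324 CPM on control diet (log2 2.09, SE 0.35, adjusted p = 0.0244). Uhrf1, which carries DNA methylation through replication, stood at 3.83, 4.88 and 4.04 CPM on high-fat diet, against 1.45, 1.98 and 1.62 CPM on control diet (log2 1.33, SE 0.24, adjusted p = 0.0299). Pole, the leading-strand polymerase, stood at 6.9, 8.22 and 7.1 CPM on high-fat diet, against 4.17, 3.66 and 4.67 CPM on control diet (log2 0.83). They were the 3 called of 18 genes of DNA synthesis, beside the same 0.683%. All 24 mitosis and cytokinesis genes had a log2 change above 0, with a median of 0.88. In 17 of them every high-fat library lay above every control library, beside 12.6% of all tested genes, and 2 were called, beside 0.683%. Bub1, a spindle checkpoint kinase, stood at 0.662, 1.32 and 1.11 CPM on high-fat diet, against 0.097, 0.152 and 0.0925 CPM on control diet (log2 3.12, SE 0.51, adjusted p = 0.0244). Mki67, the antigen of cycling cells, stood at 11.5, 11.2 and 11.1 CPM on high-fat diet, against 2.81, 6.2 and 4.58 CPM on control diet (log2 1.31, SE 0.27, adjusted p = 0.043). The list summed to 74.1, 75.3 and 81.3 CPM in high-fat libraries, against 27.3, 48 and 45.9 CPM in control libraries, so control replicate 1 was lowest. Top2a, the mitotic topoisomerase, was apart between diets and did not pass (5.77, 7.83 and 9.84 CPM on high-fat diet, against 1.7, 3.96 and 3.29 CPM on control diet; adjusted p = 0.0767).

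Condensin, the ring that compacts mitotic chromosomes, had 3 of 8 subunit genes raised, beside 0.683% of all tested genes, in a list made after the values had been seen. Smc2 stood at 12.6, 12 and 12.4 CPM on high-fat diet, against 6.74, 7.47 and 8.51 CPM on control diet (log2 0.70, SE 0.13, adjusted p = 0.0342). Smc4, its partner in the core, stood at 28.2, 32.3 and 33.8 CPM on high-fat diet, against 18.1, 20.5 and 23.6 CPM on control diet (log2 0.60). Ncaph, the kleisin that closes the ring, stood at 3.45, 3.87 and 3.99 CPM on high-fat diet, against 1.55, 1.88 and 1.62 CPM on control diet (log2 1.16, SE 0.22, adjusted p = 0.0348). Of 20 cyclin and cell cycle control genes 2 were raised, beside 0.683% of all tested genes. Ccnd1, the cyclin of growth factor response, stood at 29.9, 24.2 and 33.5 CPM on high-fat diet, against 12.1, 18.3 and 14.5 CPM on control diet (log2 0.96, SE 0.18, adjusted p = 0.0342), with 23.4% of its exon bases shared with an opposite-strand gene. E2f7, a repressor of the E2F family, was raised at 2.74, 2.81 and 2.6 CPM on high-fat diet, against 1.41, 1.22 and 1.25 CPM on control diet (log2 1.07). Brca1, of DNA repair, was raised too, at 2.88, 2.77 and 2.79 CPM on high-fat diet, against 1.02, 0.66 and 1.25 CPM on control diet (log2 1.52, SE 0.30, adjusted p = 0.038). In each of these genes the libraries of the diets were apart. Of the 13 called genes of replication and division named here, 0, 0 and 0 passed without high-fat replicates 1, 2 and 3, and 0, 0 and 7 without control replicates 1, 2 and 3 (adjusted p up to 0.182).

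RefSeq promoters of 4 called replication genes are shown because E2F factors are the textbook regulators of this group. Of the 5 called genes of both replication lists, Pole was not matched in the table. Searched on both strands were the E2F letters TTTCCCGC, TTTGGCGC, TTTCGCGC and TTTGCCGC, which 2.26% of 32851 promoters and 3.59% of 15558 promoters of tested genes hold, and the NF-Y letters CCAAT, which 37.4% and 37.0% hold. Mcm6 lies at chr1:128359656-128359955 on the minus strand, Mcm10 at chr2:5012742-5013041 on the minus strand, Pclaf at chr9:65890073-65890372 on the plus strand and the second start of Uhrf1 at chr17:56304063-56304362 on the plus strand (GRCm38.p6). E2F matches are in capitals. Mcm6 holds 3, at -110, -106 and -47 from the start site, the first 2 overlapping on opposite strands. Pclaf holds 1 at -5. The second start of Uhrf1 holds 1 at -185, while its first start, at chr17:56303087-56303386 and not printed, holds no E2F match and 3 of CCAAT. Mcm10, raised as strongly as Pclaf, holds none in this window. CCAAT occurs 2 times in Mcm6, 3 in Mcm10, 2 in Pclaf and 2 in this start of Uhrf1.
Mcm6: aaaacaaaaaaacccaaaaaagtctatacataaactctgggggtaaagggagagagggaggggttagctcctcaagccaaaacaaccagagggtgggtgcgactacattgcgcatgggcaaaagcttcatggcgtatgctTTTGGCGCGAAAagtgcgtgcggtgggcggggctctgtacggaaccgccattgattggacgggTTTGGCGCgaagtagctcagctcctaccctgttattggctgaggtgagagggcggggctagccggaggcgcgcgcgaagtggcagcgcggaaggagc
Mcm10: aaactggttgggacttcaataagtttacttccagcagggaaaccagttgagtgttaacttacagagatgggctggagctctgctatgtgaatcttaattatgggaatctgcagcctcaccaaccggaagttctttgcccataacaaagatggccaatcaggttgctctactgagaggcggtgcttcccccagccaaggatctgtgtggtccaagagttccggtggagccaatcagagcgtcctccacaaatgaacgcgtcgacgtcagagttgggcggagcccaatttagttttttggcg
Pclaf: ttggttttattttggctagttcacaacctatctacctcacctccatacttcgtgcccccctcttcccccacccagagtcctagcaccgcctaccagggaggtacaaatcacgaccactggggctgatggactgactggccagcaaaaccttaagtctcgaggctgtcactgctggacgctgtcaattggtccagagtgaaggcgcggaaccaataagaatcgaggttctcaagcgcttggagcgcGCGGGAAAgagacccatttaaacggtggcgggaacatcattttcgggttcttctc
Uhrf1: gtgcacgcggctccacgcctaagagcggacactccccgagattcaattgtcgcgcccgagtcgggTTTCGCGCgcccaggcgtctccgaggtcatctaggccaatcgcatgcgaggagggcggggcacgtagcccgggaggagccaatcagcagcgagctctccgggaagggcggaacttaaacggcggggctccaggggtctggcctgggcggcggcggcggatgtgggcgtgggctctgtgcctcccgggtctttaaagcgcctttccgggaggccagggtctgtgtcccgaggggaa
The lack of a match says nothing of the factors, since only these letters were searched.

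**Figure D5:**
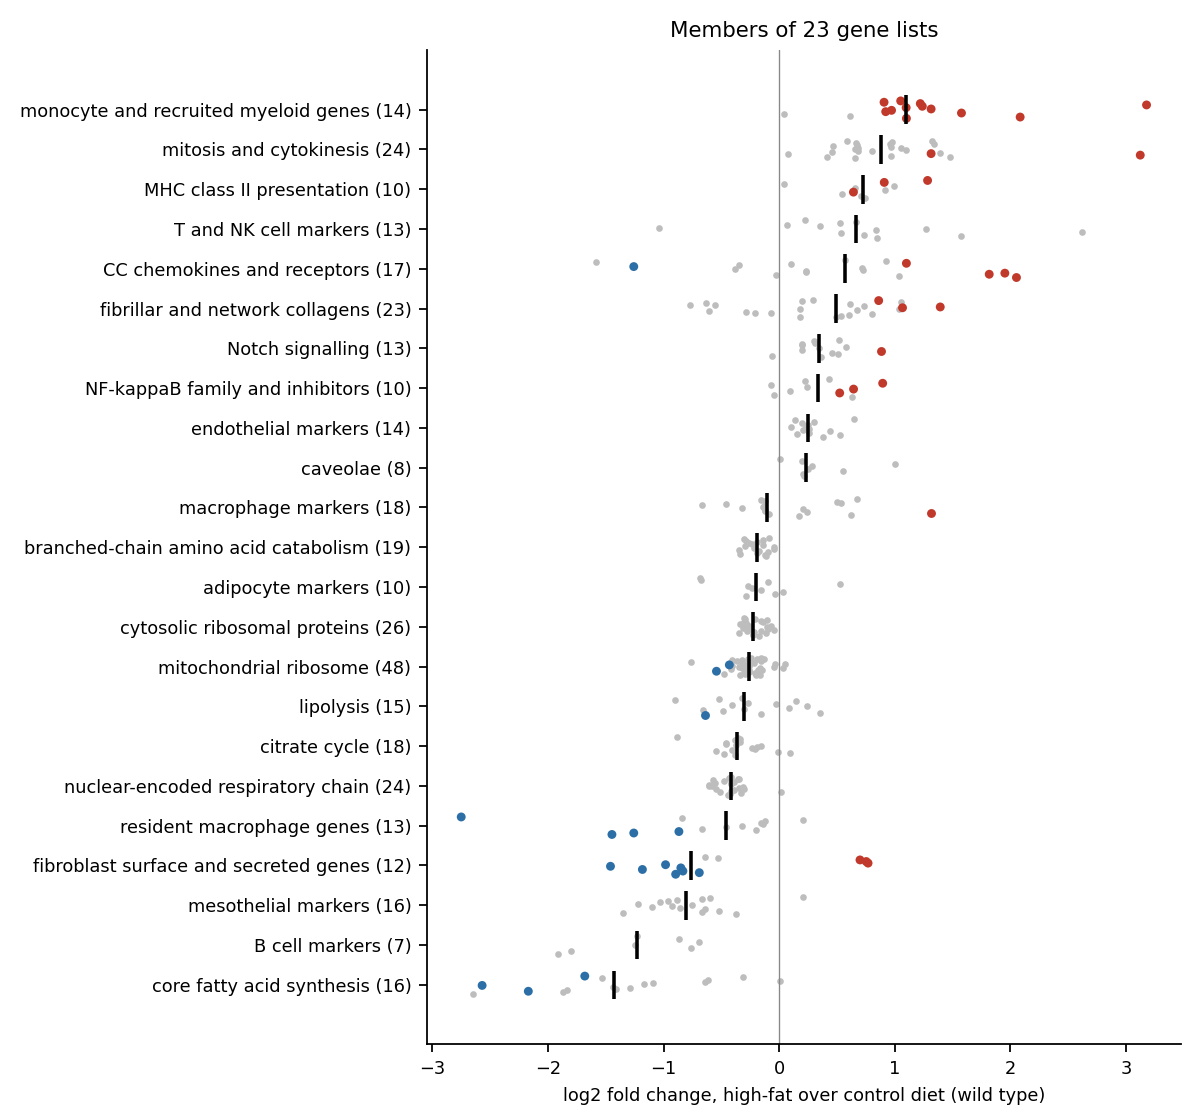
Log2 fold change (high-fat over control diet) of the measured members of 23 gene lists, with the number measured in brackets; red and blue points are called genes, grey points are not called and black bars are medians. All 24 mitosis genes lie right of 0, while 15 of 16 fatty acid synthesis genes and 23 of 24 respiratory chain genes lie left of it. Monocyte, resident macrophage, NF-kappaB, fibroblast surface and mitochondrial ribosome lists were chosen after the values had been seen.

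Among matrix genes, 2 chains of collagen VI, a beaded-filament collagen abundant in fat, were raised. Col6a1 stood at 1134, 1424 and 1014 CPM on high-fat diet, against 461, 584 and 660.1 CPM on control diet (log2 1.07, SE 0.21, adjusted p = 0.0348). Col6a2, next to it on chromosome 10, stood at 1322, 1517 and 1077 CPM on high-fat diet, against 401, 529 and 561 CPM on control diet (log2 1.39, SE 0.21, adjusted p = 0.0238). Col6a3, the third chain, stood at 157, 332 and 181 CPM on high-fat diet, against 105, 146 and 152 CPM on control diet and did not pass (log2 0.73, SE 0.30, adjusted p = 0.231). Col15a1, a basement membrane collagen, was raised at 853, 962 and 805 CPM on high-fat diet, against 499.7, 535 and 409 CPM on control diet (log2 0.86, SE 0.18, adjusted p = 0.0443). These 3 were the calls among 23 collagen genes, beside 0.683% of all tested genes that were raised. Of the 23, 13 had every high-fat library above every control library, beside 12.6% of all tested genes, and 4 had every high-fat library below, beside 12.4%. The list's median was 0.49 and its sum 9211, 11465 and 9275 CPM in high-fat libraries, against 5289.8, 6415 and 6759.8 CPM in control libraries. Pxdn, a peroxidase that crosslinks collagen IV, was raised at 393, 343 and 330.0 CPM on high-fat diet, against 198, 221 and 214 CPM on control diet (log2 0.75, SE 0.13, adjusted p = 0.0244). Adamts7, a matrix protease, was raised at 13.9, 14.6 and 14.3 CPM on high-fat diet, against 9.02, 8.84 and 6.89 CPM on control diet (log2 0.79). The metalloproteinase inhibitors went both ways: Timp1 was raised at 13.1, 33.8 and 28.4 CPM on high-fat diet, against 4.12, 4.17 and 7.91 CPM on control diet (log2 2.21, SE 0.46, adjusted p = 0.0426). Timp4 was lowered at 58.3, 57.2 and 86.3 CPM on high-fat diet, against 414, 255 and 198 CPM on control diet (log2 -2.10, SE 0.38, adjusted p = 0.029). Mmp9, a gelatinase, was lowered at 6.19, 4.62 and 5.34 CPM on high-fat diet, against 20.4, 16.2 and 13 CPM on control diet (log2 -1.62, SE 0.28, adjusted p = 0.0244). It was the only call among 16 genes of the metalloproteinase list, which does not hold Adamts7. None of 22 matrix glycoprotein and 14 collagen processing genes was called.

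Several genes that fat fibroblasts make were lowered and a few raised. Scara5, a ferritin receptor, stood at 60.1, 47.9 and 56.9 CPM on high-fat diet, against 101, 90.9 and 102 CPM on control diet (log2 -0.83, SE 0.11, adjusted p = 0.0178). Dpep1, a membrane dipeptidase, stood at 77.5, 70.2 and 69.9 CPM on high-fat diet, against 119, 131 and 142 CPM on control diet (log2 -0.85, SE 0.12, adjusted p = 0.0178). Osr1, a factor of connective tissue progenitors, stood at 25.3, 19.3 and 26.4 CPM on high-fat diet, against 53.8, 50.8 and 56.7 CPM on control diet (log2 -1.18, SE 0.20, adjusted p = 0.0244). In these 3 genes the high-fat libraries fell well clear of the controls. Spock2, a proteoglycan, fell to 25.1 ± 2.82 CPM on high-fat diet, against 69.1 ± 15.9 CPM on control diet (SD, n = 3 each) (log2 -1.46, SE 0.24, adjusted p = 0.0244), and the secreted Ogn (log2 -0.90), Islr (-0.69) and Sema3b (-0.98) fell as well. Raised were Matn2, a matrix adaptor protein (0.77), Nnmt, which methylates nicotinamide (0.75), and Vstm4, a membrane protein of vessels and stroma (0.70). These 10 genes were gathered with Pi16 and Dpp4 after their values had been seen, so their count shows nothing about fibroblast genes at large. A list of 13 progenitor and fibroblast markers was not gathered this way, though earlier results of these data were known when it was made. It had none called and a median of -0.22, or -0.34 without high-fat replicate 2. Mesothelial markers, 16 measured, had none called, 15 below 0 and 9 with every high-fat library below every control library (12.4% of all tested genes); they summed to 1099.5, 1175 and 1339 CPM in high-fat libraries, against 1979, 1721 and 2342 CPM in control libraries. The part of this cell layer in the fibroblast result was not tested. Of the 18 called matrix and fibroblast genes named here, 1, 0 and 2 passed without high-fat replicates 1, 2 and 3, and 0, 2 and 13 without control replicates 1, 2 and 3 (adjusted p up to 0.185).

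Vessel genes leaned one way by small amounts. All 14 endothelial markers lay above 0, with a median of 0.25, and none was called; they summed to 1201, 1241 and 1152 CPM in high-fat libraries, against 935, 1047 and 928 CPM in control libraries. Jag1, the Notch ligand on chr2:137081451-137116520, stood at 55.9, 59.4 and 53.4 CPM on high-fat diet, against 32.6, 31.8 and 27.1 CPM on control diet, so the lowest high-fat library was well above the highest control (log2 0.88, SE 0.10, adjusted p = 0.00796). It was the only call among 13 Notch genes, 12 of which lay above 0. Cd93, an endothelial lectin of sprouting vessels, was raised at 119, 102 and 112 CPM on high-fat diet, against 60.8, 71.9 and 53.8 CPM on control diet (log2 0.84, SE 0.14, adjusted p = 0.0244). Mmrn2, which binds it, was raised at 84.7, 93.4 and 83.4 CPM on high-fat diet, against 65.4, 63.2 and 57.5 CPM on control diet (log2 0.49). Fli1, an endothelial and blood cell factor (log2 0.53), Itga5, the fibronectin receptor chain (0.51), Pdgfa, a mesenchymal growth factor (0.71), and Arhgap23, a GTPase-activating protein (0.70), were raised. Pdgfa shares 26.1% of its exon bases with an opposite-strand gene, which makes its value less certain. Thbd, the thrombin receptor of endothelium and mesothelium, was lowered at 86.6, 75.4 and 87.6 CPM on high-fat diet, against 162, 157 and 162 CPM on control diet (log2 -0.94, SE 0.19, adjusted p = 0.0411). Wnt2b, a Wnt ligand, was lowered at 17.6, 11.6 and 16.5 CPM on high-fat diet, against 58.3, 42.5 and 56.6 CPM on control diet (log2 -1.78, SE 0.30, adjusted p = 0.0244), the only call among 17 Wnt ligands and antagonists; 2 antagonists did not pass. Sfrp5 stood at 689, 570.0 and 527 CPM on high-fat diet, against 179.6, 254 and 518 CPM on control diet (adjusted p = 0.219). Frzb stood at 6.95, 23.6 and 19.5 CPM on high-fat diet, against 2.08, 6.2 and 6.62 CPM on control diet (adjusted p = 0.109). Hba-a1, a haemoglobin chain of red cells, was lowered at 214, 229.8 and 311 CPM on high-fat diet, against 439, 696 and 576 CPM on control diet (log2 -1.18, SE 0.24, adjusted p = 0.0411) and has a near-identical copy, which makes its count uncertain. It was the only call among 8 erythroid genes, whose median was -1.12. In 7 of the 8 every high-fat library lay below every control library, beside 12.4% of all tested genes. The list summed to 334, 323 and 458.5 CPM in high-fat libraries, against 613, 1001.6 and 841 CPM in control libraries. The part of blood left in the tissue was not tested. Of the 10 called genes of vessels, Notch and Wnt named here, 1, 0 and 1 passed without high-fat replicates 1, 2 and 3, and 1, 1 and 6 without control replicates 1, 2 and 3 (adjusted p up to 0.176).

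The largest changes outside these groups concerned genes with little known role in fat. Gas2l2, a cytoskeletal linker, stood at 2.41, 2.86 and 2.92 CPM on high-fat diet, against 0.436, 0.305 and 0.37 CPM on control diet (log2 2.86, SE 0.45, adjusted p = 0.0242). Mageb18, of the MAGE family, stood at 6.43, 5.63 and 4.13 CPM on high-fat diet, against 0.582, 0.864 and 1.11 CPM on control diet (log2 2.65, SE 0.45, adjusted p = 0.0244). Cdkl4, a cyclin-dependent kinase-like protein, stood at 39.4, 57.1 and 33.5 CPM on high-fat diet, against 6.45, 5.49 and 9.81 CPM on control diet (log2 2.58, SE 0.43, adjusted p = 0.0244). In these 3 genes the lowest high-fat library was at least 3-fold above the highest control. Serpina3e-ps, a pseudogene of a repeated protease inhibitor family and hence uncertain, was raised (log2 2.13). Prrt4, a membrane protein, was lowered at 4.11, 4.49 and 4.97 CPM on high-fat diet, against 31.5, 37.4 and 7.5 CPM on control diet (log2 -2.49, SE 0.48, adjusted p = 0.0354), with control replicate 3 near the high-fat libraries. Bcas1, a gene of myelinating cells that shares 12.6% of its exon bases with other genes, was lowered (log2 -2.11), as were Ripk4, a kinase of epithelial differentiation (-1.73), and Rassf6, a Ras-association protein (-1.70). Epithelial genes were high in control replicate 1, and their part in these results was not tested. Ripk4 stood at 4.21, 2.73 and 4.83 CPM on high-fat diet, against 14.8, 7.87 and 16.3 CPM on control diet. Rassf6 stood at 1.04, 1.36 and 3.16 CPM on high-fat diet, against 5.58, 7.11 and 5.41 CPM on control diet. Among abundant genes, Fmr1, an RNA-binding regulator of translation, was raised at 713, 714 and 609.6 CPM on high-fat diet, against 399, 393 and 358 CPM on control diet (log2 0.82, SE 0.14, adjusted p = 0.0244), as were Tpm4, a tropomyosin (log2 0.62), and Olfm1, a secreted olfactomedin (0.84). Ret, the receptor of GDNF-family ligands, was raised at 104, 127 and 125 CPM on high-fat diet, against 57.5, 63.8 and 66.4 CPM on control diet (log2 0.92, SE 0.16, adjusted p = 0.0288). Rbms2, an RNA-binding protein, was lowered (-0.58). Gc, the vitamin D binding protein of liver, had the largest fitted change of the 188 called genes, at 0.756, 13.6 and 0.511 CPM on high-fat diet, against 0, 0.0508 and 0.0463 CPM on control diet (log2 7.02, SE 1.52, adjusted p = 0.0496). It is one of the liver genes described above and rested on high-fat replicate 2, without which the log2 change was 4.06 (adjusted p = 0.166). Of the 14 called genes of this group, 0, 0 and 1 passed without high-fat replicates 1, 2 and 3, and 0, 1 and 12 without control replicates 1, 2 and 3 (adjusted p up to 0.168).

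The diet response was set beside that of the transgenic mice by the genotype by diet interaction, the diet effect in transgenic minus that in wild-type fat. No gene was called (0% of 16550); 929 had an unadjusted p under 0.05, DESeq2 called 30 and limma-voom 0, and edgeR called 8 without wild-type control replicate 3. Of the 188 genes, 186 had the same direction in transgenic fat and 33 had an interaction p under 0.05 before adjustment. The smallest adjusted p, 0.557, was that of Fgf13, whose log2 diet change was 2.14 in transgenic and 0.92 in wild-type fat (difference 1.22, SE 0.21). The 2 genes that differed in direction were Cnr1 and Mmrn2, with log2 changes of -0.12 and -0.12 in transgenic fat. A difference between the genotypes was therefore not detected by edgeR for any gene of the wild-type response, which does not show that the responses were alike.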

How the data were processed

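The 12 RNA libraries of visceral white adipose tissue form 4 groups of 3 by their titles, and the 6 wild-type libraries carry the comparison. RNA was purified with a Zymo kit and prepared by the BGI DNBseq method, per the labels' protocols. The authors deposited raw read counts per gene symbol for each library. HISAT2 2.2.0, HTSeq 2.0 and DESeq2 1.32.0 are named with the mm10 build in the submitters' processing notes. For HTSeq, no annotation or strand setting is stated in the sources used here, so a gene and its antisense partner cannot be told apart. The authors also deposited a table of the wild-type diet comparison with a mean normalized count (a signal over both diets), a log2 fold change with its error, a Wald score and p-values, of which only the calls were used. Tables of the other comparisons were not used here.

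The 5 summary entries of each count file, 17.1% to 18.8% of the reads of the wild-type libraries, were left out, and multi-mapped reads are among them, so genes with near-identical copies can be measured low. The counts covered 50559 symbols, and edgeR 4.0.16 was run under R 4.3.3. filterByExpr with a minimum count of 10 and a minimum total of 15 kept 16550 genes, and libraries were scaled by TMM. A mean per group was fitted to the 12 libraries, leaving 8 residual degrees of freedom, and diets were compared by the quasi-likelihood F test. A gene was called at a Benjamini-Hochberg adjusted p below 0.05. CPM values are counts per 1 M of the TMM-scaled library total. Pairs of replicates differed by a chi-square per degree of freedom of 21.4 or more, so none was a second copy. The fit was tested on simulated data.

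Members, the 77 gene lists and the tests were chosen with earlier results of these data known, and 6 further lists after these values were seen. Named genes are the 15 largest rises and falls without overlap at 1 CPM or more, the 10 most abundant called genes in each direction, called list members with a few others of smallest p, and a panel of 15 genes. The markers Adgre1, Csf1r, Ckm, Krt5, Ttr and Cyp2e1 and some called genes outside lists were named after their values were seen. Of the genes the rule names, 1 is not reported here. The RefSeq table of GRCm38.p6 held 48908 of the symbols (96.7%) and gives coordinates and promoters; exon overlaps come from the GENCODE annotation of that assembly. Alternatives were DESeq2 1.42.0, limma-voom 3.58.1, other size factors, no filter, a replicate block, the 6 wild-type libraries alone and leaving out libraries.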

Additional observations from a re-analysis of the deposited data

How the results depend on the processing

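Each of the 188 calls kept its direction in every alternative in which the gene was measured; the number of calls did not hold. No filter on low counts gave 683 calls (349 raised, 334 lowered), DESeq2 on 12 libraries 847 (456 raised, 391 lowered), limma-voom 699 (353 raised, 346 lowered) and DESeq2 on the 6 wild-type libraries 1015 (516 raised, 499 lowered). Other size factors gave 185 and edgeR on the 6 wild-type libraries 226. Without the epithelial-rich libraries 32 genes passed (20 raised, 12 lowered) and without the muscle-rich libraries 23 (15 raised, 8 lowered). Leaving out 1 library at a time gave 0 to 269 calls, 0 to 131 raised and 0 to 172 lowered. Leaving out a transgenic library gave 128 to 224 calls. Fewer libraries leave fewer degrees of freedom; otherwise the cause was not tested. The interaction, with 0 calls, had 53 with no filter, 30 with DESeq2, 1 without the epithelial-rich libraries and 0 to 8 with 1 library left out. The share of raised calls, 60.1%, was 51.1% with no filter, 53.8% with DESeq2 and 50.5% with limma-voom.

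Same-numbered libraries deviated from their group means with correlations of 0.07, -0.05 and -0.04, so the replicate numbers do not pair libraries. With the number as a replicate block 99 genes passed (63 raised, 36 lowered), 89 of them among the 188, and not every library correlated best with its own number.

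The sign of Car3, -0.0007 in log2, turned to 0.00735 with other size factors, 0.00533 with DESeq2, 0.00526 with limma-voom, 0.00628 with edgeR and 0.00349 with DESeq2 on the 6 wild-type libraries, and ran from -0.0803 to 0.0373 with 1 library left out. Ucp1 turned to 0.48 with the replicate block and 0.30 without the epithelial-rich libraries (-7.42 to 0.30 with 1 library left out). Ckm turned to -2.66 without the muscle-rich libraries (-2.67 to 8.04 with 1 left out), Socs2 ran from -0.57 to 0.13 and Adgre1 from -0.10 to 0.32. None of these was called. Depth limits the low genes: at 20.7 to 21.3 M counts, 0.1 CPM is about 2 counts.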

Other observations

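Stress programmes gave no call between the diets by edgeR. This held for 14 measured genes of the amino acid stress response (median log2 fold change 0.11), 16 of the unfolded protein response (0.02), 14 of the oxidative stress response (-0.05), 10 induced by hypoxia (0.01) and 12 immediate early genes (0.01). The median over all genes tested was -0.01. None was called either among 20 lysosome genes (median -0.04), 8 of caveolae (0.23), 6 of the phagocyte NADPH oxidase (0.40), 11 targets of TGF-beta (0.12), 16 activin, GDF and BMP signals (0.08), 12 smooth muscle and pericyte markers (0.28, or 0.17 without control replicate 3) and 7 renin-angiotensin genes (-0.09).

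Of 12 measured imprinted growth genes, Plagl1, a zinc-finger factor, was raised. It stood at 107, 94.4 and 147 CPM on high-fat diet, against 70.2, 38 and 54.5 CPM on control diet (log2 fold change 1.10, SE 0.23, adjusted p = 0.0438 in edgeR). Of 10 measured annexins, Anxa9 was lowered, at 4.25, 4.35 and 3.81 CPM on high-fat diet, against 7.56, 7.87 and 7.13 CPM on control diet (log2 fold change -0.86, SE 0.17, adjusted p = 0.0371 in edgeR). The libraries of the diets did not overlap in either gene.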
